A study of Rattus norvegicus with 4 samples.

Results

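Sulfated glycosaminoglycans are long sugar chains built on core proteins, and the genes described here are the enzymes and carriers that make, sulfate or desulfate them in rat joint cartilage. The 60 genes were the rows of a count table of 24005 genes whose symbols match these enzyme families. The rule reads symbols only, though it was written with earlier results of these data known. They split into 12 genes of shared steps, 16 of chondroitin and dermatan sulfate, 23 of heparan sulfate and 9 of keratan sulfate or of other sulfated glycans. The osteoarthritis group was 2 libraries labelled osteoarthritis that also carry the treatment label XGS, short for Xiaogu San, a herbal preparation. The model named by the submitters is monosodium iodoacetate, a compound that blocks glycolysis and damages cartilage after injection into a joint. The control group was 2 libraries labelled healthy and control. All 4 are labelled as cartilage. The donors were Sprague Dawley males, which are outbred rats, at 8 to 12 weeks of age and 140 to 230 g of body weight. No osteoarthritis library lacks the XGS label, so disease and preparation cannot be told apart, and the labels do not say whether libraries came from separate animals or from pooled ones. The design text calls the healthy animals mice while every label says rat.

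Chain synthesis starts with xylose on a serine of the core protein, followed by galactose and glucuronate, and this linker is common to chondroitin and heparan sulfate. The next sugar decides the type of chain, N-acetylgalactosamine for chondroitin and N-acetylglucosamine for heparan sulfate. Sulfotransferases then place sulfates at set positions, taking them from the donor PAPS. In cartilage, the chondroitin sulfate of aggrecan holds water and lets the tissue bear load, while heparan sulfate at the cell surface binds growth factors. Inherited defects of several of these genes, among them those of the sulfate carrier Slc26a2 and of the heparan polymerase, cause skeletal disease in humans.

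Messenger RNA was sequenced to 24492412 and 25994449 counts in the osteoarthritis libraries and to 28156020 and 28270779 counts in the control libraries. Levels are given as CPM (counts scaled to the library's size and TMM factor) for one gene across libraries, and as the deposited FPKM, which divides by gene length and column total, between genes. Of the 60 genes, 48 passed the filter on low counts and were tested with 15282 genes in all. The labelled tissue was checked on its markers. The 11 of 13 listed chondrocyte markers summed to 3860 and 3089 CPM in the osteoarthritis libraries and to 19709 and 33022 CPM in the control libraries. Of the 10 tested, 8 lay below both controls and 0 above. The osteoarthritis sums rested on different genes. Col2a1 had 3431 and 385 CPM there, against 13919 and 26813 CPM in control, and Col11a1 had 119 and 2360 CPM, against 196 and 531 CPM in control. Matn1 was under 1 CPM in 3 libraries and Epyc in all 4. The 8 erythroid markers summed to 437 and 1132 CPM in osteoarthritis and 36758 and 31574 CPM in control, and the 9 neutrophil markers to 98.9 and 565 CPM in osteoarthritis and 7131 and 11236 CPM in control. The osteoarthritis libraries also differed from each other: the 6 tendon and ligament markers summed to 352 and 7522 CPM there, against 2471 and 2469 CPM in control, and the 9 adipocyte markers to 8287 and 74.6 CPM, against 1687 and 675 CPM in control. In osteoarthritis library 2, 5 adipocyte markers, Adipoq and Plin1 among them, were under 1 CPM. In bulk tissue, fewer cells of a type and less RNA per cell cannot be told apart, and the part of these differences in the results that follow was not tested.

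The comparison asked which steps of chain synthesis differed in osteoarthritis cartilage. In either direction, no member passed the quasi-likelihood test of edgeR, adjusted by Benjamini-Hochberg over all genes tested, and the smallest adjusted p was 0.12. That test called 0 genes of the whole table as well. At an unadjusted p under 0.05, 8 members were higher in osteoarthritis, which is 16.7% of those tested against a background of 12.2% of all genes, and 0 were lower, against 11.2% of all genes. The 8 were the sulfate carrier Slc26a2, the chondroitin genes Csgalnact1 and Chsy3, the dermatan epimerase Dse, and the heparan genes Ext1, Ndst1, Hs2st1 and Hs6st2. For 13 members both osteoarthritis libraries lay above both controls, 27.1% of those tested against 30.0% of all genes, and below both for 8, 16.7% against 26.5%. The share above is near the background and is no result about these genes. DESeq2, run as an alternative, called 3 members higher, Chsy3, Dse and Hs6st2 (adjusted p of 0.0284, 0.0268 and 0.00125), and 0 lower. These were 6.25% and 0% of the members tested, against 7.24% and 8.26% of all genes. The share called higher is near the background and is no result about these genes. Hs6st2 had 0 counts in both controls and passed the filter on low counts through the osteoarthritis libraries alone. Its call and its place among the 8 and the 13 are therefore no support for a difference of the members.

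**Figure D1:**
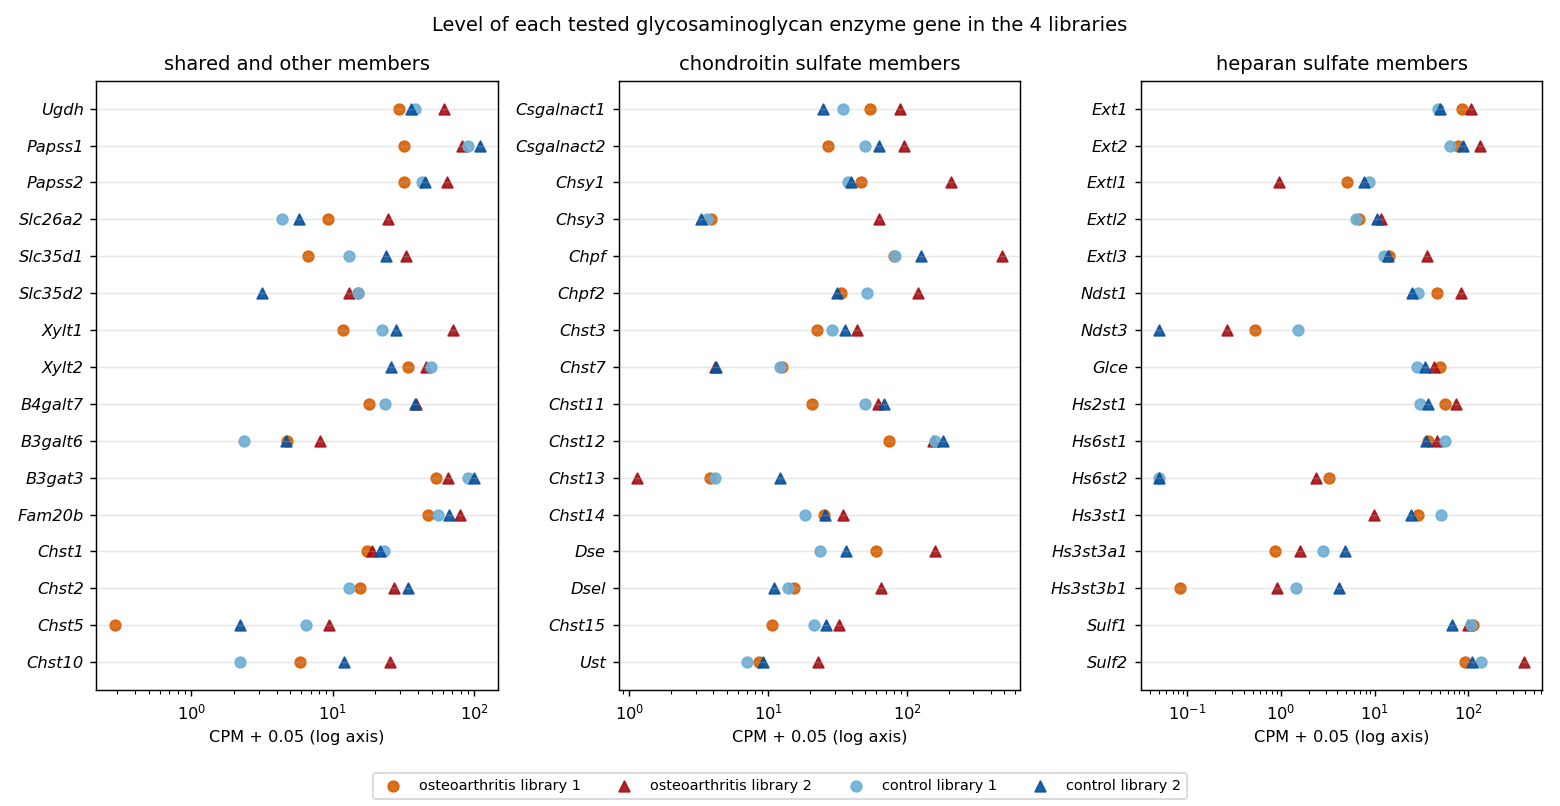
CPM plus 0.05 on a log axis for each of the 48 tested members, 1 point per library, in panels for shared and other, chondroitin sulfate and heparan sulfate genes. For Chsy3, Chpf and Dsel the point of osteoarthritis library 2 stands apart from the other 3, while for Ext1, Hs2st1 and Ndst1 both osteoarthritis points lie to the right of both controls. Counts of 0 stand at 0.05.

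The sign of the fold change differed between the steps of a chain, though the main test called no member. Within chondroitin sulfate, all 6 polymerization genes and all 3 dermatan genes had a positive log2 fold change, and all 3 chondroitin 4-O-sulfotransferases a negative one. Of all 15282 genes tested, 8414 were positive and 6868 negative. Csgalnact2 (0.11 ± 0.62) and the 4-O gene Chst11 (-0.52 ± 0.58) lay within their SE of 0. Without osteoarthritis library 2, 3 of the 6 polymerization genes were positive and 3, Chpf, Chpf2 and Csgalnact2, were negative, while all 3 dermatan genes stayed positive. Csgalnact2 also turned negative with upper quartile factors, in the limma fits and without control library 1, and the 4-O gene Chst11 turned positive without library 1. Within heparan sulfate, 6 of the 16 tested genes were above both controls and 3 below, beside 30.0% and 26.5% of all genes. The 6 were the polymerase subunit Ext1, Extl3, the N-sulfation gene Ndst1, the epimerase Glce, the 2-O-sulfation gene Hs2st1 and Hs6st2. Because Hs6st2 passed the filter on low counts through the osteoarthritis libraries alone, its place among the 6 is no support for a difference. The count above both controls is near the background and is no result about these genes. The 3 below were Extl1, Hs3st3a1 and Hs3st3b1. All 3 tested 3-O-sulfotransferases had negative fold changes. The median log2 fold change was 0.12 for the 12 shared genes, 0.67 for the 16 chondroitin genes, 0.38 for the 16 tested heparan genes and 0.01 for the 4 tested others, beside 0.15 for all genes tested. Single members ranged from -2.63 to 9.20, the latter for Hs6st2, which also counts in the heparan median. None of these medians was tested.

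**Figure D2:**
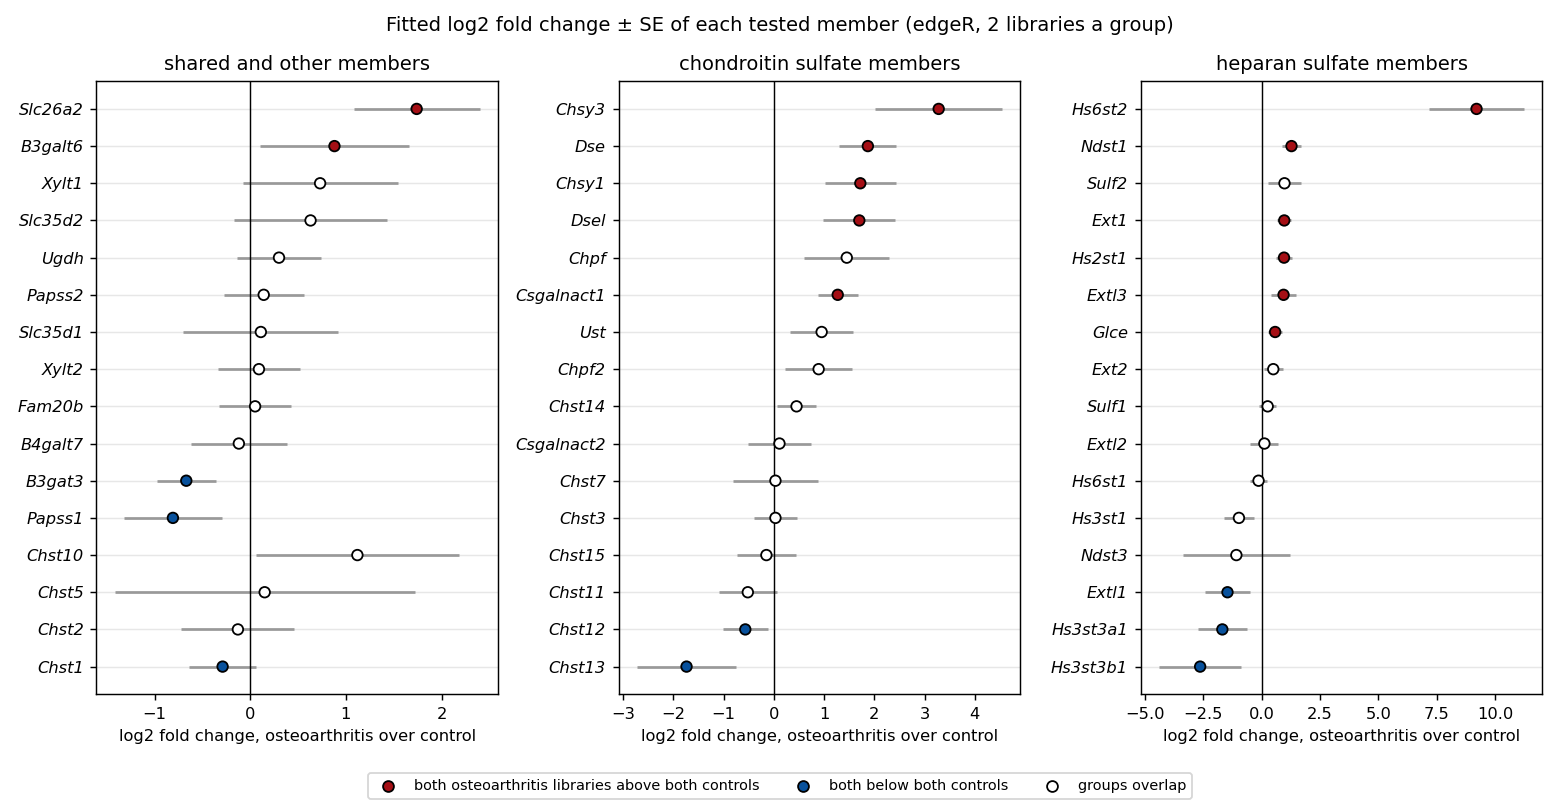
Fitted log2 fold change of osteoarthritis over control with its standard error for each tested member, in the same 3 panels and with a scale of its own in each. Filled points mark members whose groups did not overlap, red above and blue below both controls, and none passed the test over all genes.

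The 250 bases before the start of 6 of these genes are printed to show the sequence at which their transcription begins, 4 above both controls (Hs2st1, Glce, Dse, Chsy1) and 2 below (Papss1, Chst12). They are from RefSeq promoters of build GRCr8, read 5′ to 3′ on the strand of the gene: Hs2st1 at chr2:236302134-236302383 (minus strand), Glce at chr8:71507588-71507837 (minus), Dse at chr20:26740012-26740261 (minus), Chsy1 at chr1:129099838-129100087 (plus), Papss1 at chr2:222714180-222714429 (plus) and Chst12 at chr12:19226199-19226448 (minus). Capitals mark the GC box letters GGGCGG or their reverse complement.
Hs2st1: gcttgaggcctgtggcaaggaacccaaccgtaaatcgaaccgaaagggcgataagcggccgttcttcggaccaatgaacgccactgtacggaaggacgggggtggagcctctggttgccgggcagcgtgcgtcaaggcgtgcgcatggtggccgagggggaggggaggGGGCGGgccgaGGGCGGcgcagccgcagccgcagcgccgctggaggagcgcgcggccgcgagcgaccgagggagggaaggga
Glce: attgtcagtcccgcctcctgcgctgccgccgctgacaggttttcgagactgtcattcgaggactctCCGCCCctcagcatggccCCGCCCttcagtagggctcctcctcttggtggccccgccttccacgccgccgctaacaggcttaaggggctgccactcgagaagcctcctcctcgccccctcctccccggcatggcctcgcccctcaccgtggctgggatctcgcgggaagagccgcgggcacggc
Dse: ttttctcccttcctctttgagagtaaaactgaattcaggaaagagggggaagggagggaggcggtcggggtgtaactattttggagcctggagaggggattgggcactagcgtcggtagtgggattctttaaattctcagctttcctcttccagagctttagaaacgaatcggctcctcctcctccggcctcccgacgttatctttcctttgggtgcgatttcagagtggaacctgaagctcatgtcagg
Chsy1: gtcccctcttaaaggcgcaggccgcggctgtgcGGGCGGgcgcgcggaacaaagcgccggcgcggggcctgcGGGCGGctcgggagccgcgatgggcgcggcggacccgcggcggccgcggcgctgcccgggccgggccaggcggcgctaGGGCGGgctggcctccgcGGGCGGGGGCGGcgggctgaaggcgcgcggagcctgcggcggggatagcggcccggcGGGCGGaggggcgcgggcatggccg
Papss1: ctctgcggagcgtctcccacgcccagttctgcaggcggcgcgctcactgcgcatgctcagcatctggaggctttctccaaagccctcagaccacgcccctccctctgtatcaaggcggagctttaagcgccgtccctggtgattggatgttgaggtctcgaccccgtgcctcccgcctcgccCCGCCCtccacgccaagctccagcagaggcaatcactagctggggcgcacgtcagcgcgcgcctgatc
Chst12: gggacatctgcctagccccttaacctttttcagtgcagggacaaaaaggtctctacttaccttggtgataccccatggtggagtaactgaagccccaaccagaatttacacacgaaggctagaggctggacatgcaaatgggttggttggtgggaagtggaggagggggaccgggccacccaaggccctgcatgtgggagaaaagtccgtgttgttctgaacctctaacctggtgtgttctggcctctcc
The letters GGGCGG were found, on either strand, at 2 places in the window of Hs2st1, 2 in Glce, 6 in Chsy1 and 1 in Papss1, and at 0 in Dse and Chst12. Over the 50 members with an entry, 31 windows held them (62%), against 30.5% of all 33469 windows of that length, and the median GC content was 66% against 51.2%. TATAAA was in 3 of the 50 (6%, against 12.9%), CCAAT in 13 (26%, against 34%) and CACGTG in 1 (2%, against 5.59%). Among the 6 printed windows, those of genes above and below the controls did not separate by these letters. The 50 windows were not split in this way, and a match describes the sequence alone.

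Among the shared steps, supply of sulfate and of sugar nucleotides comes first. Slc26a2, the sulfate carrier of the cell membrane, had 9.12 and 24.5 CPM in the osteoarthritis libraries, against 4.29 and 5.75 CPM in the control libraries. Both osteoarthritis values lay above both controls, with a fitted log2 fold change, osteoarthritis over control, of 1.74 ± 0.66 (SE; edgeR adjusted p = 0.201). Without osteoarthritis library 2 it was 0.86 (edgeR adjusted p = 0.703). Slc26a2 was one of the less abundant genes of the step, at 0.797 to 4.01 FPKM. Papss1, one of the enzymes that make PAPS, had 32 and 81.1 CPM in osteoarthritis, against 89.3 and 109 CPM in control, a log2 fold change of -0.81 ± 0.51. Without osteoarthritis library 2 its log2 fold change was -1.63, and it was then the 1 member called lower (edgeR adjusted p = 0.0402), where 4.76% of all genes were. Papss2, the PAPS synthase known to be needed for skeletal growth, had 31.9 and 64.4 CPM in osteoarthritis and 42.3 and 44.8 CPM in control. Its groups overlapped, at a log2 fold change of 0.14 ± 0.42.

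The balance of the PAPS synthases can be read within each library, where scaling between libraries has no part. The FPKM of Papss1 was 1.5 and 1.88 times that of Papss2 in the osteoarthritis libraries, against 3.15 and 3.64 times in the control libraries. Papss2 thus held 40% and 34.7% of their summed FPKM in osteoarthritis and 24.1% and 21.5% in control. Ugdh, which makes UDP-glucuronate for both chains, had 29.1 and 61.1 CPM in osteoarthritis and 38 and 35.4 CPM in control, with osteoarthritis library 1 below and library 2 above the controls. The UDP-sugar carrier Slc35d1, needed for chondroitin synthesis in mouse cartilage, had 6.65 and 32.9 CPM in osteoarthritis and 13 and 23.7 CPM in control, and its groups overlapped.

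The linker genes overlapped between groups for the most part. Xylt1, the xylosyltransferase that is tied to skeletal growth, had 11.8 and 70.9 CPM in osteoarthritis, against 22.2 and 27.7 CPM in control. Osteoarthritis library 1 was the lowest and library 2 the highest of the 4. Its paralog Xylt2 had 33.8 and 45.8 CPM in osteoarthritis and 49 and 25.7 CPM in control. B3gat3, which closes the linker with glucuronate and had the highest mean level of the shared genes at 48.4 FPKM, had 53.5 and 65.2 CPM in osteoarthritis, against 89.9 and 99.5 CPM in control. Both osteoarthritis libraries lay below both controls, and the log2 fold change of -0.67 ± 0.31 (edgeR adjusted p = 0.263) stayed between -0.82 and -0.57 under the 14 alternatives. The galactosyltransferase B3galt6 had 4.68 and 8.08 CPM in osteoarthritis and 2.29 and 4.64 CPM in control, with library 1 almost level with the higher control. The galactosyltransferase B4galt7 and the xylose kinase Fam20b had log2 fold changes of -0.12 and 0.05.

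In chondroitin chain building the osteoarthritis libraries differed widely from each other. Chsy1, a chondroitin polymerase, had 46.6 and 207 CPM in osteoarthritis, against 37.2 and 39.6 CPM in control. Chsy3, its paralog, had 3.83 and 62.6 CPM in osteoarthritis, against 3.59 and 3.22 CPM in control. For both, library 1 stood just above the controls and library 2 far above them. Their log2 fold changes were 1.72 ± 0.71 for Chsy1 (edgeR adjusted p = 0.231) and 3.28 ± 1.26 for Chsy3 (edgeR adjusted p = 0.205), and 0.28 and 0.17 without osteoarthritis library 2. Chpf, a partner protein of the polymerases and the second most abundant chondroitin gene, had 80.7 and 481 CPM in osteoarthritis and 81 and 125 CPM in control. Its library 1 was level with the lower control, and on FPKM it lay between the controls (34.9, against 29.4 and 41.3 FPKM). Its log2 fold change of 1.45 ± 0.85 was -0.35 without library 2. Chpf2, another partner, had 33.4 and 119 CPM in osteoarthritis and 51.4 and 31.2 CPM in control.

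Csgalnact1, which adds the sugar that commits the chain to chondroitin and is needed for normal cartilage in mice, was higher in both libraries. It had 53.7 and 89.1 CPM in osteoarthritis, against 34.5 and 24.8 CPM in control, a fitted log2 fold change of 1.27 ± 0.40 (edgeR adjusted p = 0.159). Without osteoarthritis library 1 it was 1.55 and without library 2 it was 0.86. Csgalnact2, its paralog, had 26.7 and 94.1 CPM in osteoarthritis and 49.7 and 62.5 CPM in control, so its groups overlapped. Csgalnact1 held 60.1% and 41.6% of the summed FPKM of the pair in osteoarthritis, against 34.2% and 22.9% in control.

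Against control, the chondroitin 4-O-sulfotransferases had fold changes of the opposite sign to the polymerization genes. Chst12 and Chst11 were, like those genes, higher in osteoarthritis library 2 than in library 1, and Chst13 was lower. Chst12, the most abundant of all 60 genes at a mean of 70.1 FPKM, had 74.3 and 154 CPM in osteoarthritis, against 158 and 181 CPM in control. Both osteoarthritis values lay below the controls, library 2 by a small margin, with a fitted log2 fold change of -0.57 ± 0.45 (edgeR adjusted p = 0.503). Chst11, the isozyme whose loss disturbs cartilage growth in mice, had 20.5 and 61.8 CPM in osteoarthritis and 49.5 and 68.2 CPM in control, a log2 fold change of -0.52 ± 0.58, and its groups overlapped. Chst13, the third, had 3.76 and 1.08 CPM in osteoarthritis and 4.08 and 12.1 CPM in control. Chst12 held 85.7% and 87.2% of the summed FPKM of the 3 in osteoarthritis and 87.4% and 81.6% in control.

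The 6-O-sulfotransferases overlapped between groups. Chst3, the main chondroitin 6-O-sulfotransferase of cartilage, had 22.4 and 43.4 CPM in osteoarthritis and 28.9 and 35.6 CPM in control, with a log2 fold change of 0.03 ± 0.43, whose sign turned under 5 of the 14 alternatives. Chst7 had 12.5 and 4.11 CPM in osteoarthritis and 12.1 and 4.14 CPM in control, about the same spread in each group. The FPKM of Chst12 was 9.44 and 10.1 times that of Chst3 in the osteoarthritis libraries, against 15.5 and 14.4 times in the control libraries. With all isozymes summed, the ratio of 4-O to 6-O enzymes was 4.68 and 9.43 in osteoarthritis and 8.81 and 13.8 in control, and these overlapped. Chst15, which adds a further sulfate to 4-O-sulfated units, had 10.5 and 32.1 CPM in osteoarthritis and 21.3 and 26.1 CPM in control. The 2-O-sulfotransferase Ust had 8.45 and 22.6 CPM in osteoarthritis and 6.93 and 9.13 CPM in control.

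Dermatan sulfate is chondroitin in which an epimerase has turned glucuronate into iduronate, and it is common in fibrous tissue. Dse, the main epimerase, had 59.1 and 159 CPM in osteoarthritis, against 23.6 and 36.1 CPM in control. Both osteoarthritis libraries lay above both controls, with a fitted log2 fold change of 1.87 ± 0.57 (edgeR adjusted p = 0.154), which was 2.35 without osteoarthritis library 1 and 0.98 without library 2. DESeq2 called it higher (adjusted p = 0.0268), as did edgeR's likelihood ratio test (adjusted p = 0.0384). On simulated data with estimated dispersions, DESeq2 made 91 false calls against 5 by the main test, and the likelihood ratio test was not tried. Dsel, the paralog of Dse, had 15.2 and 64.4 CPM in osteoarthritis, against 13.7 and 10.9 CPM in control, close to the controls in library 1. Chst14, the dermatan 4-O-sulfotransferase, had 25.3 and 34.5 CPM in osteoarthritis and 18.2 and 25.5 CPM in control, and its groups overlapped. Tendon and ligament markers, given above, were high in osteoarthritis library 2 and low in library 1, and their part in these values was not tested.

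**Figure D3:**
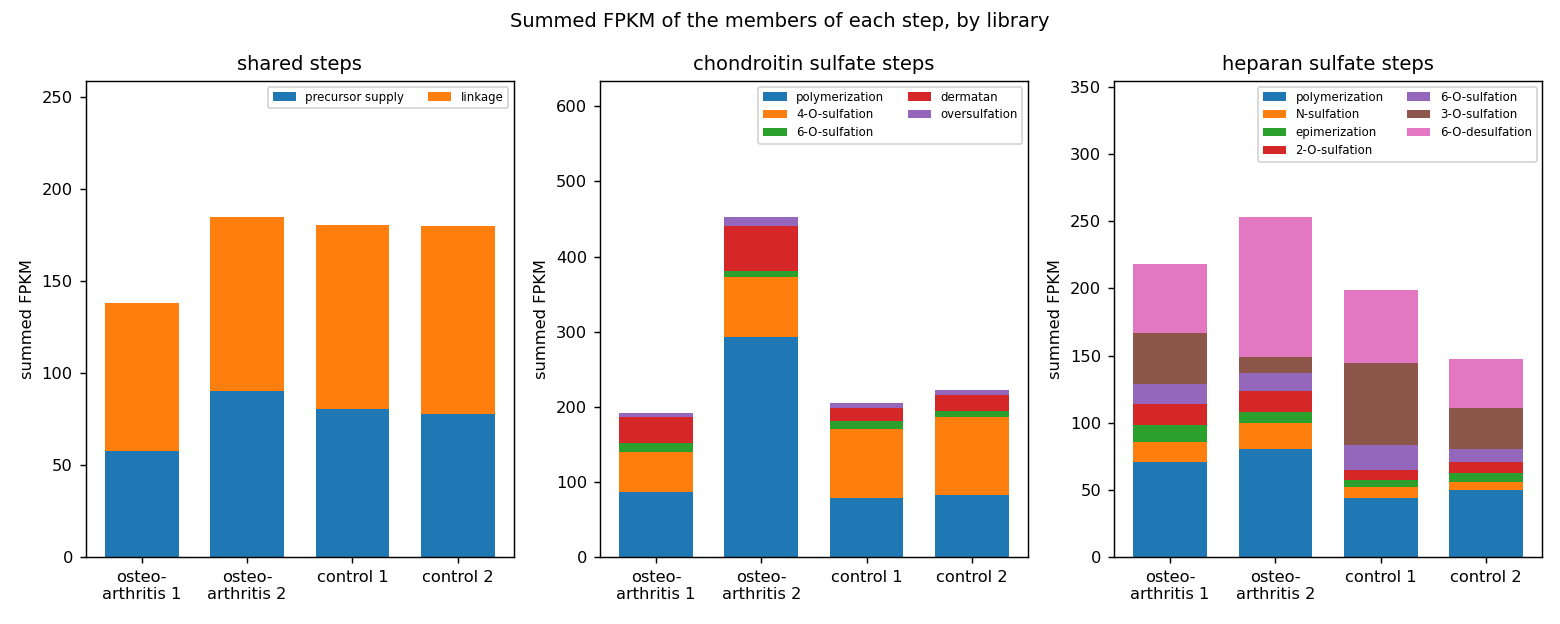
Summed deposited FPKM of the members of each step, stacked, for the 2 osteoarthritis and the 2 control libraries, in panels for shared, chondroitin sulfate and heparan sulfate steps. Chondroitin polymerization reached 293 FPKM in osteoarthritis library 2 against 78.9 to 87.5 FPKM in the other 3 libraries, while 4-O-sulfation was at 52.9 and 79.8 FPKM in osteoarthritis and at 92.5 and 104 FPKM in control.

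Summed over a step, the level of building genes relative to 4-O-sulfotransferases was higher in each osteoarthritis library than in either control. The 6 polymerization genes summed to 87.5 and 293 FPKM in osteoarthritis and to 78.9 and 83.1 FPKM in control, and the 4-O-sulfotransferases to 52.9 and 79.8 FPKM in osteoarthritis and 92.5 and 104 FPKM in control. The ratio of these sums was 1.66 and 3.66 in osteoarthritis, against 0.853 and 0.803 in control. The dermatan genes Dse, Dsel and Chst14 summed to 0.671 and 0.752 times the 4-O-sulfotransferases in osteoarthritis, against 0.187 and 0.207 times in control, so on this ratio the libraries of a group lay close together. Of 13 such ratios examined, 7 did not overlap between groups, where 56.1% of all pairs of tested genes with a count in every library did not. The count is therefore at the background. The summed ratios were chosen after the counts had been seen.

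**Figure D4:**
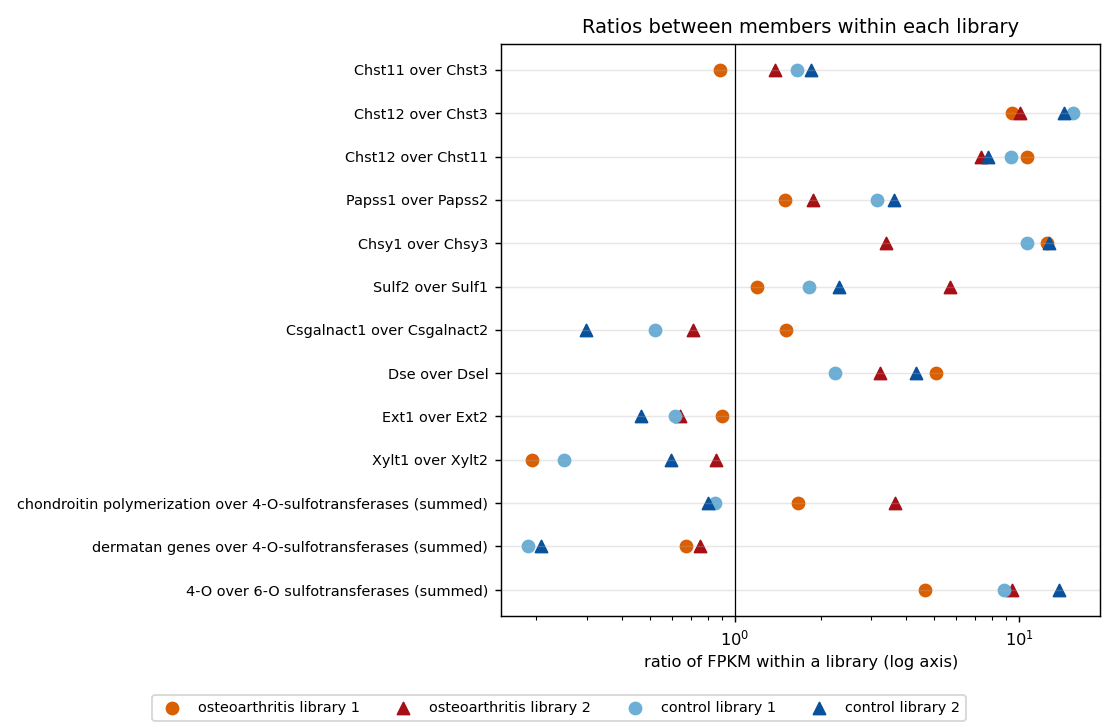
Ratio of FPKM between members or sums of members within each library, on a log axis, 1 point per library. The ratio of dermatan genes to 4-O-sulfotransferases is 0.671 and 0.752 in osteoarthritis and 0.187 and 0.207 in control, and the ratio Chsy1 to Chsy3 sets osteoarthritis library 2 (3.4) apart from the other 3 libraries.

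In heparan sulfate building, Ext1 was higher in each osteoarthritis library by similar amounts. This subunit of the heparan polymerase had 85.6 and 106 CPM in osteoarthritis, against 48 and 49.9 CPM in control. The libraries of each group lay close together and the groups apart, with a fitted log2 fold change of 0.97 ± 0.31 (edgeR adjusted p = 0.159) that stayed between 0.81 and 1.06 under the 14 alternatives. Ext2, the other subunit, had 77.4 and 134 CPM in osteoarthritis and 63.1 and 87 CPM in control, a log2 fold change of 0.50 ± 0.41, and overlapped. Extl3, which adds the first N-acetylglucosamine of the chain, had 14.2 and 36.3 CPM in osteoarthritis and 12.5 and 13.8 CPM in control, with library 1 just above the controls. Extl2 had 6.82 and 11.7 CPM in osteoarthritis and 6.34 and 10.6 CPM in control. Extl1 had 5.02 and 0.907 CPM in osteoarthritis and 8.62 and 7.75 CPM in control, and was the 1 polymerization gene of heparan sulfate below both controls.

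The first modification is N-sulfation. Ndst1, its main enzyme outside mast cells, had 46.4 and 83.9 CPM in osteoarthritis, against 28.8 and 24.9 CPM in control, a fitted log2 fold change of 1.28 ± 0.40 (edgeR adjusted p = 0.159). It held at least 95.8% of the summed FPKM of the 4 Ndst genes in every library, and osteoarthritis lay above control in both libraries. Ndst2, the enzyme used for heparin in mast cells, had 2 and 3 counts in osteoarthritis and 0 and 0 in control. The 8 mast cell markers summed to 95.3 and 46.8 CPM in osteoarthritis and 96.3 and 83.1 CPM in control. Ndst3 had 14 and 5 counts in osteoarthritis and 42 and 0 in control, and Ndst4 had 7 and 0 in osteoarthritis and 0 and 0 in control.

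The enzymes that act next lay apart in the same direction. Hs2st1, the only heparan 2-O-sulfotransferase, had 55.8 and 74.6 CPM in osteoarthritis, against 30.3 and 36.7 CPM in control, a fitted log2 fold change of 0.96 ± 0.33 (edgeR adjusted p = 0.18). The groups did not overlap. Glce, the epimerase of heparan sulfate, had 49.7 and 43.5 CPM in osteoarthritis and 28.1 and 34.3 CPM in control, a log2 fold change of 0.58 ± 0.31. For Ext1, Hs2st1 and Glce, osteoarthritis library 2 differed from library 1 by 0.31, 0.42 and -0.19 on the log2 scale. For Chsy1, Chsy3 and Chpf the same difference was 2.14, 3.86 and 2.57. Endothelial markers, whose cells make heparan sulfate, summed to 1506 and 945 CPM in osteoarthritis and 1007 and 471 CPM in control, and the 7 markers of stromal and synovial fibroblasts to 843 and 1602 CPM in osteoarthritis and 3504 and 1729 CPM in control. Prg4, lubricin of the joint surface, carried the fibroblast sum in control: without it, a step chosen after its values were seen, the other 6 summed to 819 and 1456 CPM in osteoarthritis and 468 and 516 CPM in control. Of the 7, Thy1, Cd34 and Dpt lay above both controls, and Pi16, Dpp4 and Prg4 below both. The part of these markers in the enzyme values was not tested.

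6-O-sulfation rested on Hs6st1, which had 37 and 46.3 CPM in osteoarthritis and 55.7 and 35.6 CPM in control. Hs6st2, its paralog, had 94 and 53 counts in the osteoarthritis libraries and 0 in both control libraries. Its CPM was 3.19 and 2.29 in osteoarthritis. With 3 counts per library as the floor for a count of 0, which is 0.106 and 0.115 CPM in the control libraries, the osteoarthritis mean was at least 24.8-fold higher. The fitted log2 fold change of 9.20 ± 2.04 (edgeR adjusted p = 0.12) depends on the prior count and is no bound. DESeq2 called it higher (adjusted p = 0.00125). The gene passed the filter on low counts through the osteoarthritis libraries alone, so that call is no support for a difference. It held 6.76% and 4.02% of the summed FPKM of the 3 Hs6st genes in osteoarthritis. Hs6st3 had 6 and 1 counts in osteoarthritis and 48 and 0 in control.

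3-O-sulfation is the rarest modification and forms, among others, the binding site of antithrombin. Hs3st1, the most abundant 3-O-sulfotransferase at a mean of 31.4 FPKM, had 28.8 and 9.85 CPM in osteoarthritis and 51.5 and 24.2 CPM in control, a log2 fold change of -0.97 ± 0.65 with overlapping groups, which was -1.97 without osteoarthritis library 1 and -0.38 without control library 1. Hs3st3a1 had 0.814 and 1.56 CPM in osteoarthritis, against 2.78 and 4.83 CPM in control, and Hs3st3b1 had 0.0339 and 0.864 CPM in osteoarthritis, against 1.41 and 4.14 CPM in control. Both lay below both controls at low levels. The other 4 were under the filter: Hs3st2 had 6 and 4 counts in osteoarthritis and 0 and 0 in control, Hs3st4 had 9 and 3 in osteoarthritis and 0 and 16 in control, Hs3st5 had 1 and 30 in osteoarthritis and 0 and 0 in control, and Hs3st6 had 0 and 9 in osteoarthritis and 83 and 10 in control.

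The extracellular sulfatases Sulf1 and Sulf2 remove 6-O-sulfates from finished heparan sulfate and so alter growth factor binding. Sulf2, the most abundant heparan gene at a mean of 44.1 FPKM, had 91.6 and 395 CPM in osteoarthritis and 137 and 109 CPM in control. Library 1 was below and library 2 above both controls, and the log2 fold change of 0.98 ± 0.71 was -0.43 without library 2. Sulf1 had 111 and 99.3 CPM in osteoarthritis and 108 and 67.4 CPM in control, a log2 fold change of 0.26 ± 0.37. The FPKM of Sulf2 was 1.19 and 5.7 times that of Sulf1 in osteoarthritis and 1.82 and 2.32 times in control.

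The members outside these chains were few and mostly low. Chst1, the galactose 6-O-sulfotransferase of keratan sulfate, had 17.5 and 18.8 CPM in osteoarthritis, against 23.1 and 21.5 CPM in control, slightly below both controls (log2 fold change -0.29 ± 0.35). Chst2, a sulfotransferase of N-acetylglucosamine, had 15.4 and 27.2 CPM in osteoarthritis and 12.9 and 33.7 CPM in control. Chst5, of the same family, had 0.237 and 9.33 CPM in osteoarthritis and 6.44 and 2.15 CPM in control. Chst10, which sulfates the HNK-1 epitope, had 5.8 and 25.1 CPM in osteoarthritis and 2.15 and 12 CPM in control. The groups of the last 3 overlapped. Chst9 and B3gat1 had 0 counts in every library, and Chst4, Chst8 and B3gat2 had at most 13 counts in 1 library and 0 in the others.

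Library by library, the osteoarthritis difference was unevenly shared. Of the 48 tested members, 39 (81.2%) were higher in osteoarthritis library 2 than in library 1, against 51.4% of all genes tested. With library size alone as the scaling, these were 34 members (70.8%) and 32% of all genes. A gap of more than 2-fold separated the osteoarthritis libraries for 27 members (56.2%, against 27.1% of all genes) and the control libraries for 9 (18.8%, against 23.4%). Against the control mean, the median member stood at -0.32 in osteoarthritis library 1 and at 0.60 in library 2 on the log2 scale, and the chondroitin polymerization genes at -0.08 and 1.90. Without osteoarthritis library 1, edgeR called 10 members higher, 20.8% of those tested against 7.0% of all genes: Xylt1, Csgalnact1, Chsy1, Chsy3, Chpf, Chpf2, Dse, Dsel, Ndst1 and Sulf2. It called 0 members lower there, against 6.21% of all genes. Without library 2 it called 0 higher, against 3.52% of all genes. Leaving out osteoarthritis library 2 moved the fold change of 26 of the 48 members by over 1.5 times, leaving out osteoarthritis library 1 that of 16, and leaving out control library 1 or 2 that of 9 or 7. In these fits the group left with 1 library borrows its spread from the other group.

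**Figure D5:**
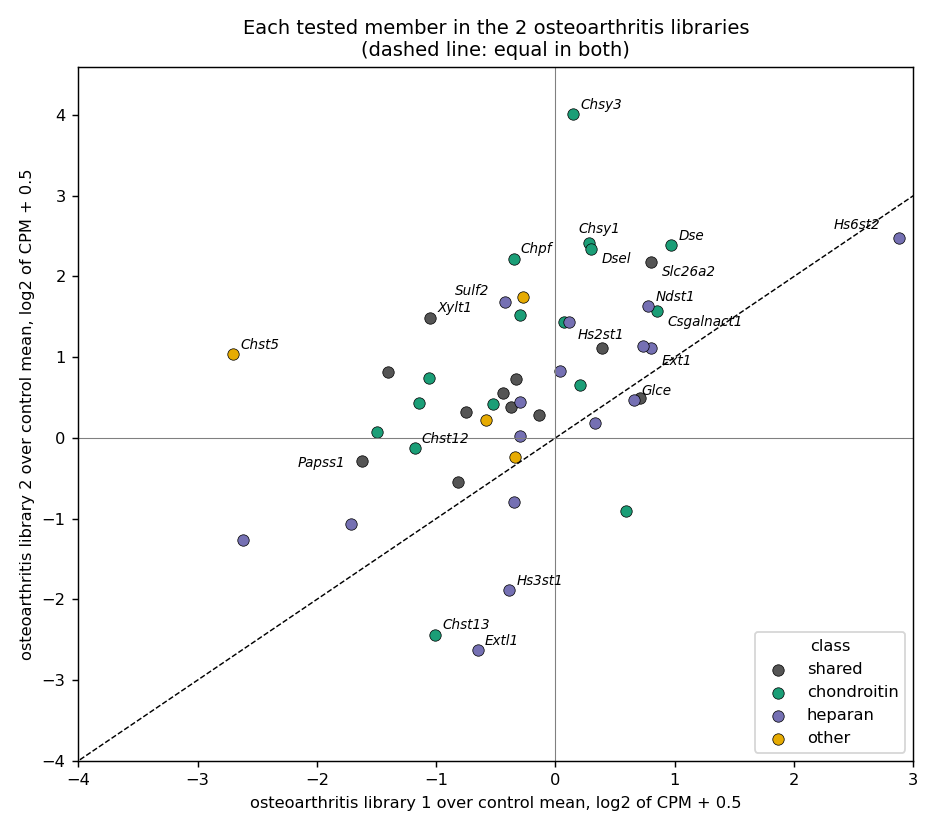
Log2 of CPM plus 0.5 over the control mean for each tested member, osteoarthritis library 1 on the horizontal and library 2 on the vertical axis, coloured by class, with a dashed line where both are equal. Of the 48 points, 39 lie above the line; Chsy3, Chsy1, Dsel and Chpf are high in library 2 and near 0 in library 1, while Ext1, Hs2st1 and Glce lie near the line.

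Other genes of the pathway were read from 5 lists, whose counts stand beside 30.0% of all genes above both controls and 26.5% below, and 12.2% higher and 11.2% lower at an unadjusted p under 0.05. Of 13 tested heparan sulfate core proteins, 6 lay above both controls and 1 below, and 5 and 1 had an unadjusted p under 0.05. Their median log2 fold change was 1.10. Col18a1, a basement membrane collagen that carries heparan sulfate, had 963 and 1049 CPM in osteoarthritis, against 221 and 115 CPM in control (log2 fold change 2.58 ± 0.52, edgeR adjusted p = 0.0963). Agrn, agrin, had 158 and 110 CPM in osteoarthritis, against 50.2 and 30.9 CPM in control (edgeR adjusted p = 0.114). Sdc3, a syndecan of the cell surface, had 68.4 and 62.7 CPM in osteoarthritis, against 126 and 248 CPM in control, and was the 1 below.

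Of 9 tested chondroitin and dermatan sulfate core proteins, 1 lay above both controls and 2 below, with a median of 0.25, beside 30.0% and 26.5% of all genes. Vcan, versican, had 112 and 1019 CPM in osteoarthritis, against 60 and 84.5 CPM in control, with library 2 far above the other 3, as for Chsy3. Srgn, serglycin, the proteoglycan of blood cell granules, had 64.9 and 58.6 CPM in osteoarthritis, against 667 and 1029 CPM in control (edgeR adjusted p = 0.0824), beside the neutrophil markers given above, whose part was not tested. Col9a2, a chain of cartilage collagen IX, had 15.4 and 6.22 CPM in osteoarthritis, against 83 and 466 CPM in control.

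Of 19 tested genes of glycosaminoglycan breakdown, 3 lay above both controls and 4 below, beside 30.0% and 26.5% of all genes, with a median of -0.01. Gusb, beta-glucuronidase, had 36.7 and 49 CPM in osteoarthritis, against 95.8 and 117 CPM in control (edgeR adjusted p = 0.122), and Idua, alpha-iduronidase, had 143 and 205 CPM in osteoarthritis, against 93.3 and 50.2 CPM in control (edgeR adjusted p = 0.182). Hpse, heparanase, had 19 and 11.5 CPM in osteoarthritis and 42.9 and 24.7 CPM in control. Of 14 tested genes, mostly of sugar nucleotide and PAPS supply, 2 lay above both controls and 3 below, beside the same background, with a median of 0.09. The 3 below included Pxylp1, which acts on the linker instead. The PAPS carrier Slc35b3 had 25.3 and 33.6 CPM in osteoarthritis, against 17.2 and 11 CPM in control. Of 4 keratan sulfate chain genes, 1 lay above and 1 below both controls, near that background.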

How the data were processed

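Messenger RNA of rat joint cartilage was profiled in 2 osteoarthritis and 2 control libraries, grouped by the disease label. Per the labels' protocols, RNA was isolated with TRIzol and RNeasy columns. The submitters' processing notes name fastp, TopHat and the human build hg38; for the counting tool, annotation and strandedness, the sources used here give nothing, so overlapping genes and near-identical paralogs are uncertain. The authors deposited raw read counts per gene. The FPKM values deposited by the authors equalled count over length and column total for all 67506 values above 0, within a relative difference of 1e-08, so they are no second measurement.

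The 60 members matched RefSeq symbols (GRCr8). The members and gene lists were chosen with earlier results of these data known. Counts were fitted with edgeR 4.0.16 in R 4.3.3 (filterByExpr, TMM, quasi-likelihood F test, two-sided, Benjamini-Hochberg over 15282 genes, threshold 0.05). SE is the fold change over the root of F. Differences of log2 CPM add 0.5 CPM. With 2 samples against 2, an exact permutation test cannot go below p = 0.333, so none was run. P-values reflect only how far these samples vary, perhaps for technical reasons, and the floor of 3 counts covers counting error only. Named members were, per class, the 4 with the smallest unadjusted p and the 3 with the highest mean FPKM, plus 17 chosen by name; the other members are given as well, so that each is accounted for. Alternatives were DESeq2 1.42.0, limma 3.58.1 (voom, and limma-trend after adding a pseudocount of 1 or 0.1 to FPKM before log2), the likelihood ratio test, other scalings and filters, and leaving out each library. On simulated data for this comparison (15282 genes, estimated dispersions), edgeR's quasi-likelihood test found 59 of the 100 seeded 16-fold changes and 5 of the 100 seeded 4-fold ones. It made 5 false calls. For DESeq2 these numbers were 83, 47 and 91. Promoter windows were searched on both strands in Python 3.11.15.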

Additional observations from a re-analysis of the deposited data

How the results depend on the processing

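With 2 libraries a group, no member or other gene passed the main test, so a missing call shows little about the change. DESeq2 called 1107 genes higher and 1262 lower, the likelihood ratio test 965 and 978, and the test without a low-count filter 677 and 751. These settings called 3, 2 and 2 members higher and 0 lower (limma-voom and both limma-trend settings called 0). Leaving out 1 library at a time, 0 to 1069 genes were called higher and 0 to 949 lower, 0 to 10 members higher and 0 to 1 lower, and 16 to 31 members (33.3% to 64.6%) lay above and 10 to 21 (20.8% to 43.8%) below the controls, beside 41.7% to 42.8% and 35.6% to 36.6% of all genes, since groups of 1 and 2 overlap less often. The median log2 fold change then ranged from -0.12 to 1.06 for the chondroitin, -0.13 to 0.64 for the heparan and -0.33 to 0.56 for the tested members together, and from -0.03 to 0.16 for all genes. The median of all genes was 0.15 with TMM, and 0.05 with upper quartile factors, 0.27 with library size alone, 0.42 with no filter, 0.11 with at least 1 CPM in 2 libraries, 0.19 with limma-voom and 0.24 with limma-trend at a pseudocount of 0.1. The number of members higher in osteoarthritis library 2 than in library 1 was 34 to 39 under the 4 scalings, an alternative added after seeing the data.

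Of 30 named members, 17 kept their direction under all 14 alternatives, and the cause of the turns was not tested. Leaving out 1 library at a time, the log2 fold change ranged from -1.52 to 0.01 for Chst11, -1.18 to 0.38 for Chst15, -0.74 to 0.72 for Chst2, -0.35 to 2.17 for Chpf, -0.29 to 2.84 for Chst10, -0.53 to 0.37 for Chst3, -4.15 to 1.09 for Chst5, -0.37 to 0.33 for Fam20b, -0.45 to 0.51 for Papss2, -0.43 to 1.64 for Sulf2, -0.34 to 0.68 for Ugdh, -1.08 to 1.45 for Xylt1 and -0.04 to 0.57 for Sulf1. Osteoarthritis library 2 was the one whose absence turned Chpf, Chst10, Papss2, Sulf2, Ugdh and Xylt1. With upper quartile factors, Chst3 was -0.10, Chst5 -0.01 and Fam20b -0.07, and with at least 1 CPM in 2 libraries Chst3 was -0.03 and Fam20b 0.00. With limma-voom, Chst3 was -0.06 and Chst5 -1.63. With limma-trend, Chst2 and Chst5 were 0.05 and -0.20 at a pseudocount of 1, and 0.07 and -0.85 at 0.1. No paired analysis was possible because the labels give no replicate numbers, so the groups share none.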

Other observations

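Slc35d2, a carrier of UDP-N-acetylglucosamine, had 15.1 and 12.9 CPM in the osteoarthritis libraries and 14.9 and 3.11 CPM in the control libraries. On the log2 scale this was the widest gap between the controls among the shared genes. Muscle markers, 7 in the list, summed to 123 and 312 CPM in osteoarthritis and 2233 and 112 CPM in control.

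Markers of bone and of marrow B cells were also lower in osteoarthritis: 8 osteoblast and osteocyte markers summed to 49.4 and 77.9 CPM in osteoarthritis and 936 and 4395 CPM in control, the 7 listed osteoclast markers to 112 and 452 CPM in osteoarthritis and 548 and 2516 CPM in control, and 7 B cell markers to 21.8 and 31.8 CPM in osteoarthritis and 433 and 598 CPM in control. The 8 macrophage markers summed to 659 and 329 CPM in osteoarthritis and 828 and 984 CPM in control.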
